A study of Mus musculus with 4 samples.

Results

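Transcription factor genes of the primitive streak were examined in mouse embryonic stem cells differentiating as embryoid bodies, with and without Snai1. The 10 genes listed were T (also written Tbxt), Mixl1, Eomes, Mesp1, Mesp2, Gsc, Lhx1, Tbx6, Msgn1 and Evx1. Every probe set that the array annotation pairs with one of these symbols alone was taken. This gave 11 probe sets for 9 genes, of 17097 genes named on the array. T was not analysed here, since no probe set paired with a single gene matched the symbol T. Probe sets paired with several genes were left out, so the array may still hold a probe set for T. Eomes and Lhx1 had 2 probe sets each, and the other 7 genes had 1.

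The primitive streak is the site in the gastrulating embryo where epiblast cells leave the epithelium and become mesoderm or definitive endoderm. Nodal and Wnt signals switch on T-box and homeodomain factors in the epiblast as it enters the streak, and these in turn activate bHLH factors such as Mesp1 in the cells that leave it. Snai1 encodes a zinc-finger repressor of Cdh1 that acts in cells leaving the streak, and Flk1, the receptor encoded by Kdr, marks mesoderm with blood, endothelial and cardiac potential.

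The study had 4 groups with 1 array each. They were Flk1+ and Flk1- cells of a control line, labelled F/F, and Flk1+ and Flk1- cells of a Snai1 knockout line, all sorted with an antibody to Flk1 from embryoid bodies. The labels give day 4 for all groups except the knockout Flk1- cells, whose description gives day 4 and whose source name gives day 5, so in any comparison with that array the genotype or sort difference and a difference in day cannot be told apart. How the knockout was made and how many clones were used are not given in the sources used here. Without replicates the spread between cultures is unknown, so no test was run, no difference has a replicate check, and the number of arrays limits the precision.

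Values are log2 expression values per probe set, and a difference of 1 is 2-fold. A floor of 3.19, the 40th percentile of all gene values on all arrays, was used as a cut-off for low values. It is not a detection call. The percentile largely sets the number of genes above it, which was 10195 to 10302 on an array. Kdr, a check of the sort, was at 8.92 and 9.03 in the Flk1+ fractions of control and knockout and at 4.55 and 3.88 in their Flk1- fractions. Snai1 was below the floor on all 4 arrays, at 1.88 to 2.56, and so does not check the genotype labels. As a scale for the differences, probe sets of the same gene differed with an SD of 0.20 to 0.28 per probe set over the 4 comparisons (2328 genes with 2 probe sets above the floor). This SD covers disagreement between probe sets of the same RNA and not the spread between cultures.

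Eomes, Mixl1, Evx1 and Mesp1 were each highest in control Flk1+ cells, whereas Gsc, Lhx1, Msgn1 and Tbx6 were highest in a knockout fraction. Of the 9 genes, 7 were above the floor on all 4 arrays, Tbx6 on 1 array and Mesp2 on none. Promoter sequences are shown for Mesp1, Evx1 and Eomes, which shared the high value in control Flk1+ cells, and for Gsc, which did not. Each is the 250 bases before the annotated start on the strand of the gene, from RefSeq on GRCm38.p6, with matches to the searched motifs in capitals. The positions are chr7:79793591-79793840 on the minus strand for Mesp1, chr6:52313248-52313497 on the plus strand for Evx1, chr9:118477939-118478188 on the plus strand for Eomes and chr12:104473237-104473486 on the minus strand for Gsc. Mixl1, the other gene with this pattern, was not among the promoters used here.
Mesp1: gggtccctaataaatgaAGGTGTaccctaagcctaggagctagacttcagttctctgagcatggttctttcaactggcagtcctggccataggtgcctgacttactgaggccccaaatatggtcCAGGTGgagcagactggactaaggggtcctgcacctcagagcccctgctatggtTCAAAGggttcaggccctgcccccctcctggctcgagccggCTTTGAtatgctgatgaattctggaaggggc
Evx1: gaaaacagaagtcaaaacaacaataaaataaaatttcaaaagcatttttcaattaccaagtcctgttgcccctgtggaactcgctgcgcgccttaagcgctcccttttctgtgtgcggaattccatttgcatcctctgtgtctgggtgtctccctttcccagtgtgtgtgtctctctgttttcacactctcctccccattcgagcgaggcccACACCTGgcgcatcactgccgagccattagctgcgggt
Eomes: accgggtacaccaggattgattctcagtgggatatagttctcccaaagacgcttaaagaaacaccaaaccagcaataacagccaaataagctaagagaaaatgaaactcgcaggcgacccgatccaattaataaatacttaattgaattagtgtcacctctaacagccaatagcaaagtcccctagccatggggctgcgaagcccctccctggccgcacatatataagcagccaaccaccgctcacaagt
Gsc: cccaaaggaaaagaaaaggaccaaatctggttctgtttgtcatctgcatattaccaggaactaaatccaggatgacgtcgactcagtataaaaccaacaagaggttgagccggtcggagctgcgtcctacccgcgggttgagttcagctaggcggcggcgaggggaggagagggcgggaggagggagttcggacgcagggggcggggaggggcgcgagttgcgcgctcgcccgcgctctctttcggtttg

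The motifs were searched as letters, on both strands, in windows from 250 bases before to 50 bases from the start, which were at hand for 9 of the 10 genes, T included. CAGGTG, the E-box bound by Snail-type repressors, was in 3 of 9 windows (Evx1, Mesp1 and T), and in 20.0% of the windows of all 27025 genes. AGGTGT, the core of the T-box site, was in 4 (Evx1, Mesp1, Mesp2 and T), against 13.9% of all windows. In Evx1 and in T the matches to these 2 motifs overlap in the shared letters AGGTG, so they are not separate occurrences. CTTTGA, the core bound by the TCF and LEF factors of the Wnt pathway, was in 3 windows (Mesp1, Msgn1 and T), against 16.2% of all windows. TGTGGATT, the site of the Nodal mediator FOXH1, was in 1 window (Mesp2), against 0.873%. In Mesp2 this match lay after the start, at 24 to 31, and overlaps the T-box match at 29 to 34. The E-box lay at -126 to -121 in Mesp1 and at -37 to -32 in Evx1, counted from the start at 0. None of the 4 motifs was matched in the windows of Eomes, Gsc, Lhx1 and Tbx6. A match is a run of letters and not a measured site.

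**Figure D1:**
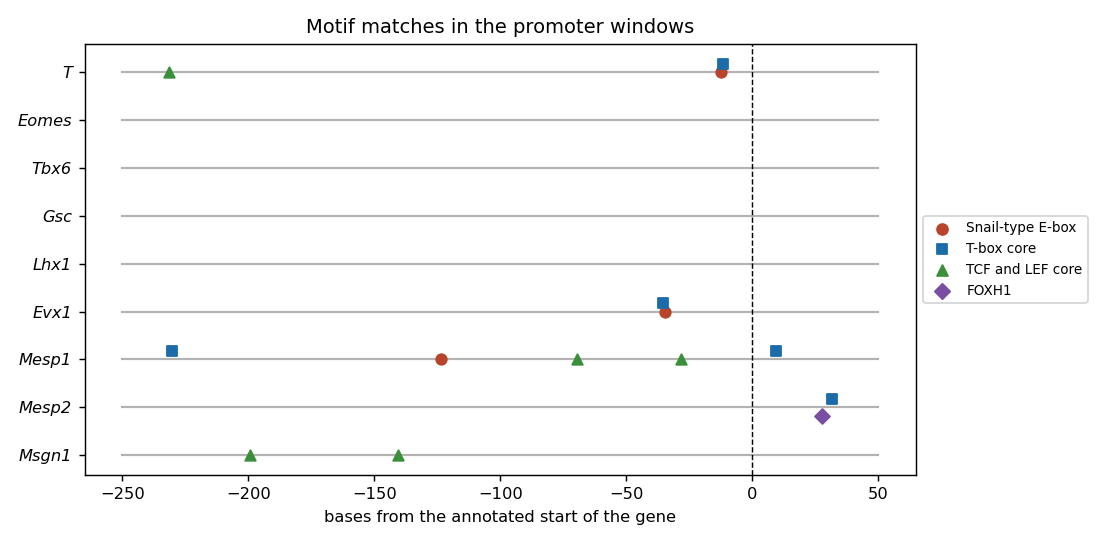
Matches to the 4 searched motifs in the promoter windows of 9 streak factor genes, by distance in bases from the annotated start (dashed line at 0). Each grey line is a window, and each symbol is the middle of a match. Mesp1 holds matches to 3 of the motifs, and in Evx1 and T the E-box and T-box matches overlap.

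Among the T-box genes, Eomes encodes the factor that acts earliest, in the epiblast and anterior streak, upstream of Mesp1 and of definitive endoderm. Its brighter probe set, 1435172_PM_at, was at 7.21 in Flk1+ and 6.05 in Flk1- cells of the control, and at 6.39 in both fractions of the knockout. Control Flk1+ cells stood above the other arrays, and both knockout fractions lay at the same level between the control fractions. The second probe set, 1426001_PM_at, was at 6.34 and 5.20 in these control fractions and at 5.49 (Flk1+) and 5.52 (Flk1-) in the knockout, the same pattern. From here on, 4 values in a row are given for control Flk1+, then control Flk1-, then knockout Flk1+, then knockout Flk1-. Tbx6, which directs cells to paraxial mesoderm, was at 3.09, 2.70, 3.24 and 2.49 (1449868_PM_at), and only its value in knockout Flk1+ cells was above the floor.

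Among the homeodomain genes, Mixl1 encodes a streak factor induced by Nodal signalling. It was at 5.31, 4.06, 4.55 and 4.14 (1421505_PM_at), with control Flk1+ cells highest and both Flk1- fractions close together. Evx1, a factor of the posterior streak, was at 5.78, 4.84, 5.07 and 4.81 (1421627_PM_at), again with control Flk1+ cells alone at the top. Gsc, a repressor of the anterior streak and organizer, was at 3.32, 3.58, 3.89 and 4.26 (1421412_PM_at), so both knockout arrays were above both control arrays and the control Flk1+ value was not far above the floor. Lhx1, a LIM homeodomain factor of anterior mesendoderm and of lateral mesoderm, was at 7.09, 6.95, 7.23 and 7.36 on its brighter probe set, 1450428_PM_at. The other Lhx1 probe set, 1421951_PM_at, was at 7.03, 6.45, 7.29 and 7.16. Both gave higher values in the knockout than in the control in each fraction, but they differ in which knockout fraction was higher.

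Among the bHLH genes, Mesp1 marks the first mesoderm cells to leave the streak, including those of the heart. It was at 5.25, 4.37, 4.79 and 4.06 (1426557_PM_at). Both Flk1+ arrays were above both Flk1- arrays, and within each fraction the control was above the knockout. Mesp2, the neighbouring gene, which sets the front of each forming somite, was at 3.01, 2.75, 3.14 and 2.62 (1419629_PM_at), all below the floor. Msgn1, which drives the maturation of presomitic mesoderm, was at 3.72, 3.59, 3.92 and 3.57 (1421798_PM_at), a range of 0.35 that is the narrowest of the 9 genes.

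**Figure D2:**
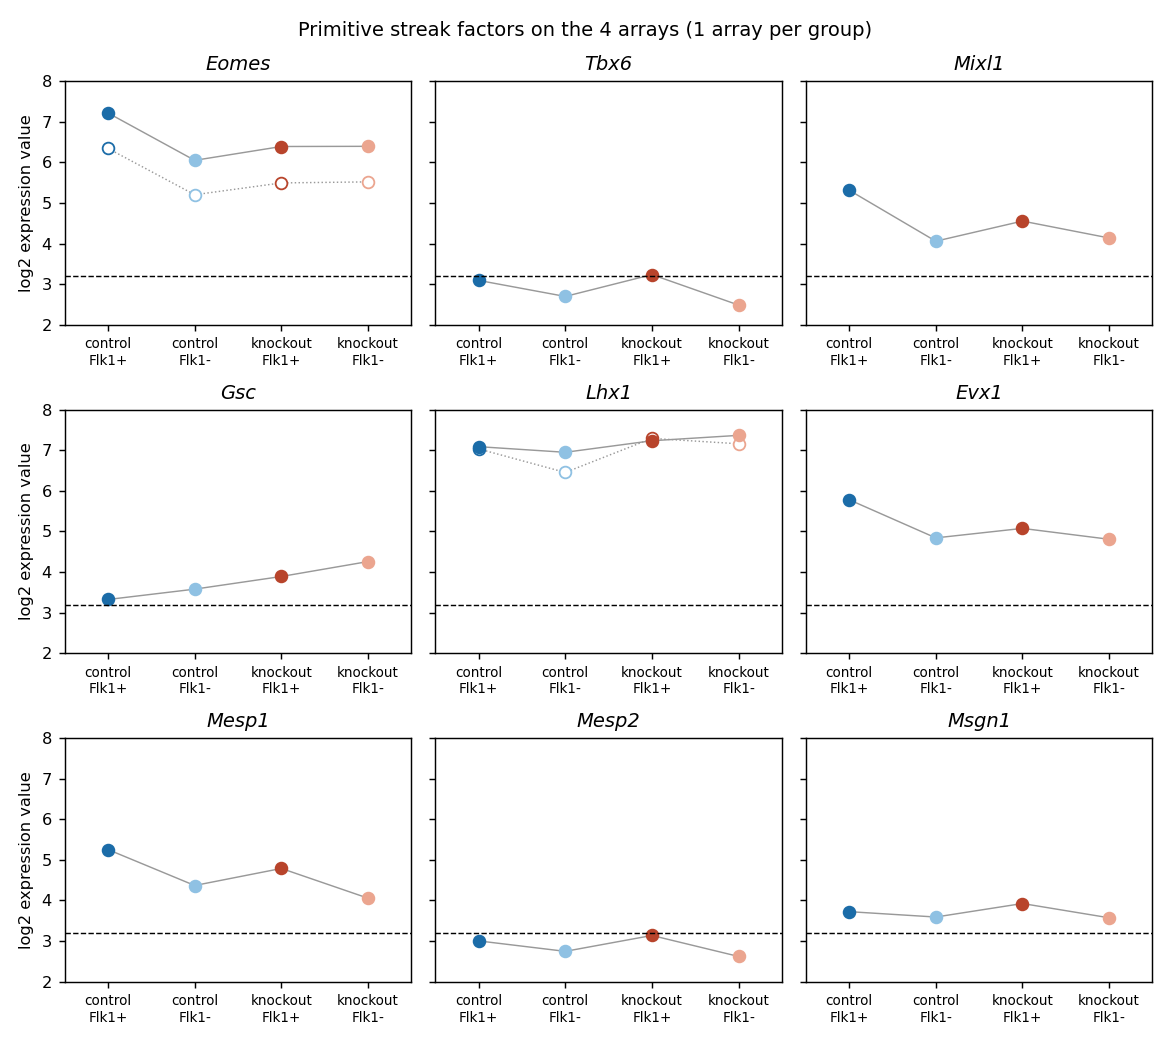
Log2 expression values of the 9 streak factor genes on the 4 arrays, 1 array per group. Filled points are the probe set with the highest mean, open points the other probe set of Eomes and Lhx1, lines only join the points of a probe set, and the dashed line is the floor at 3.19. Eomes, Mixl1, Evx1 and Mesp1 are highest in control Flk1+ cells, Gsc is higher on both knockout arrays, and Mesp2 lies below the floor throughout.

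Flk1+ and Flk1- cells of the control line were compared to see which factors went with Flk1. Mixl1 was 2.39-fold and Eomes 2.24-fold higher in Flk1+ cells, with differences of 1.26 and 1.17 on the log2 scale. Evx1 and Mesp1 were 1.92-fold and 1.85-fold higher, with differences of 0.94 and 0.88. Lhx1 and Msgn1 were close to level, at 0.14 and 0.13, although the dimmer probe set of Lhx1 gave 0.58, and Gsc was the only one lower in Flk1+ cells, at -0.25. Of the 7 genes above the floor on either array, 2 were thus 2-fold or more apart, where 2.70% of 10622 genes were. At 1.5-fold 4 of the 7 were higher, against 3.48% of all genes. The median difference was 0.88 over these 7 genes and -0.011 over all genes. Taken without the floor, over all 9 genes, it was 0.40. Erythroid markers moved with this sort, with a summed level of 117 in Flk1+ and 2329 in Flk1- cells. Of these 5 markers 4 were 2-fold or more lower in Flk1+ cells, against 1.51% of all genes. Hemato-endothelial markers, Kdr included, moved the other way, with a summed level of 938 in Flk1+ and 115 in Flk1- cells. Of these 8 markers 7 were 2-fold or more higher in Flk1+ cells, against 1.2% of all genes. The part of both marker lists was not tested. In sorted fractions measured in bulk, more cells of a type and more RNA per cell cannot be told apart.

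Within knockout cells the same sort gave smaller differences for Eomes, Mixl1, Evx1 and Mesp1. Eomes differed by -0.0044 between the fractions, and its second probe set by -0.025. After quantile normalization, median centring or cyclic loess the Eomes difference was 0.14 to 0.17, so its sign depends on the scaling while it stays near 0. Mixl1 was 0.42 higher in Flk1+ cells and Evx1 0.27 higher. Mesp1 kept most of its difference, at 0.73 (1.66-fold), and Tbx6, with only its Flk1+ value above the floor, was at 0.75, or 0.044 with the lower value set to the floor. Msgn1, Lhx1 and Gsc were at 0.35, -0.13 and -0.37. Of 8 genes above the floor on either array, 0 were 2-fold apart, against 3.79% of 10688 genes, and 2 were 1.5-fold higher (Mesp1 and Tbx6), against 4.35%. The median was 0.31 over the 8 genes (0.50 after median centring and 0.16 once values under the floor were raised to it) and -0.077 over all genes. Centring on the median of genes above the floor moved the median of all genes in this comparison to 0.086.

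**Figure D3:**
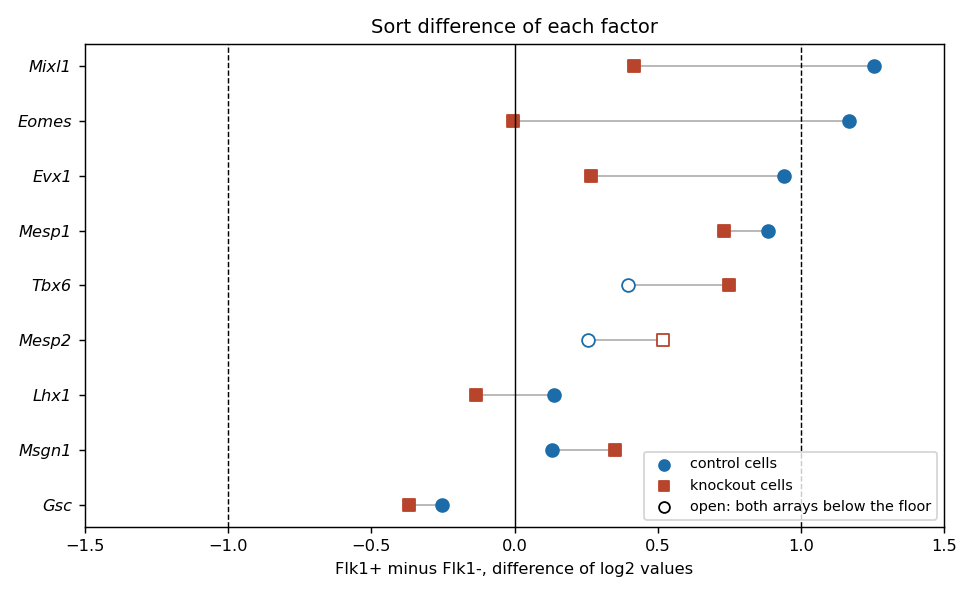
Difference of log2 values between Flk1+ and Flk1- cells for each streak factor gene, in control cells (circles) and knockout cells (squares). Open symbols mark a comparison in which both arrays were below the floor, and dashed lines mark 2-fold. Mixl1 and Eomes lie beyond the 2-fold line in control cells only, and the Eomes difference in knockout cells is at 0.

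The genotype comparison within Flk1+ cells asked whether cells of the sorted mesoderm fraction differed without Snai1. Eomes was 1.77-fold, Mixl1 1.69-fold and Evx1 1.63-fold lower in the knockout, with differences of -0.82, -0.76 and -0.71. Mesp1 was at -0.46. Gsc was 1.48-fold higher, with a difference of 0.57, and Msgn1, Lhx1 and Tbx6 were at 0.20, 0.15 and 0.14. None of the 8 genes above the floor was 2-fold apart (0 genes), against 1.85% of 10655 genes, and 3 were 1.5-fold or more lower, against 4.42%. A difference as low as that of Eomes was found for 1.60% of all genes, and one as low as that of Evx1 for 2.52%. The median over the 8 genes was -0.16, against -0.048 over all genes, and it was 0.20 after median centring and 0.13 without a floor, so the genes as a group have no settled direction.

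This comparison shares the control Flk1+ array with the sort comparison in control cells, so a high value on that array enters both. The gap between 3' and 5' control signals for Gapdh, a measure of how evenly transcripts were copied, was 2.05, 1.76, 1.47 and 1.99. Its part in the Flk1+ differences was not tested. Markers of pluripotent cells also moved with genotype and sort. The summed linear level of the 7 named markers was 99.6, 650.1, 262 and 1114, with 4, 7, 5 and 7 of them above the floor. The summed level of 4 epiblast markers was 605, 1212, 1338 and 1980, with all 4 above the floor on each. By genotype in Flk1+ cells, 4 of 5 pluripotent markers above the floor were 2-fold or more higher, against 0.873% of all genes. Of the epiblast markers 3 of 4 were. Klf4 went the other way, at -0.22 there and at 0.12 in the control sort. The other probe set of Pou3f1 gave 0.037 by genotype in Flk1+ cells. Both lists were lowest in control Flk1+ cells, where Eomes, Mixl1, Evx1 and Mesp1 were highest. Fibroblast (feeder cell) markers were highest there, with a summed level of 179, 68.1, 53.6 and 45.3 over 7 markers and 3, 3, 1 and 1 of them above the floor. Col1a1, Col3a1 and Postn were the 3, at -2.55, -2.06 and -1.71 by genotype in Flk1+ cells and at 1.85, 1.80 and 1.34 by sort in control cells, although the other probe set of Col3a1 gave -0.43 and 0.26. Thy1, Col1a2, Dcn and Lum were below the floor on all arrays. Erythroid and cardiac markers also differed by genotype in Flk1+ cells. Of those above the floor, 3 of 4 and 2 of 3 were 2-fold or more lower, against 0.976% of all genes. At any size 1 erythroid and 0 cardiac markers were higher. Summed levels were 117 in control and 29.3 in knockout Flk1+ cells for the erythroid list, and 247 and 99.1 for the cardiac list. The part of these marker lists in the differences of the streak factors was not tested.

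Within Flk1- cells the genotype differences of Eomes, Mixl1, Evx1 and Mesp1 were smaller or of the other sign. Gsc was 1.60-fold higher in the knockout, with a difference of 0.68, and Lhx1 and Eomes were 0.42 and 0.35 higher. Mixl1, Msgn1 and Evx1 were near level, at 0.079, -0.019 and -0.034, and Mesp1 was at -0.31. Of 7 genes above the floor, 0 were 2-fold apart, against 1.34% of 10533 genes, and 1 (Gsc) was 1.5-fold higher, against 2.97%. The median was 0.079 over the 7 genes and 0.039 over all genes. It was -0.019 without a floor, 0.023 after median centring and 0.21 with a higher floor, the overall median, so its direction is not settled. The probe sets of Lhx1 gave 0.42 and 0.71, and the knockout array here is the one with both day 4 and day 5 in its labels. Erythroid markers moved with genotype in this fraction, with a summed level of 2329 in control and 32.3 in knockout cells and 5 and 1 of 5 markers above the floor, and their part was not tested.

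**Figure D4:**
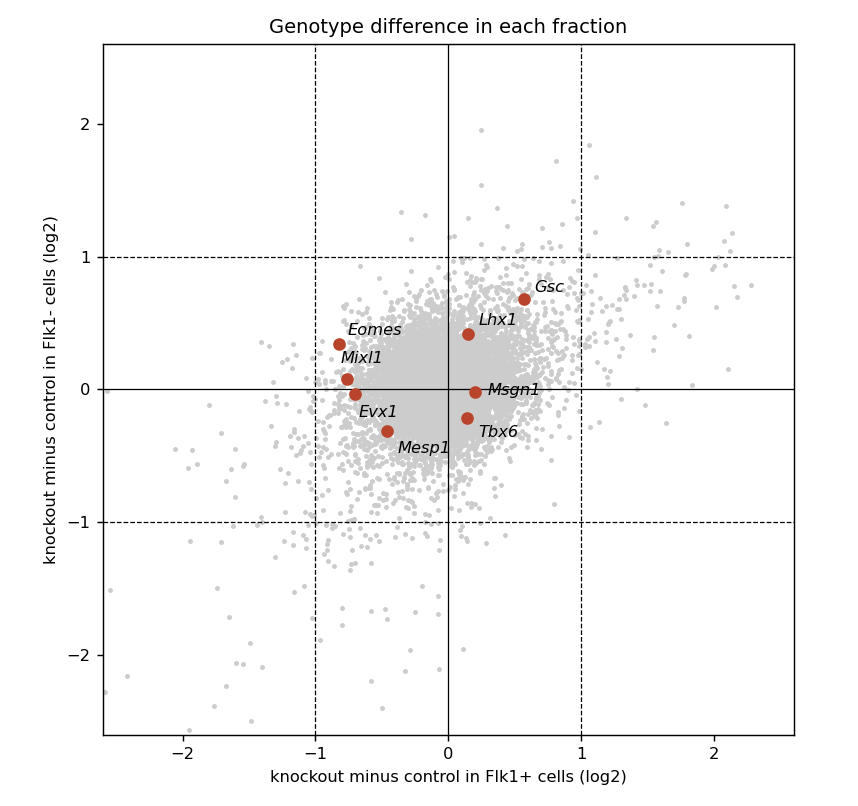
Knockout minus control difference of log2 values in Flk1+ cells (x axis) against that in Flk1- cells (y axis), for 10943 genes (grey; 12 more lie outside the axes) and for the 8 streak factor genes above the floor on at least 1 array (red). Dashed lines mark 2-fold. Eomes, Mixl1 and Evx1 lie to the left, with Eomes at -0.82 and 0.35, and Gsc lies up and right at 0.57 and 0.68.

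The difference of differences, in which the Flk1- genotype difference is subtracted from the Flk1+ one, was -1.17 for Eomes, -0.84 for Mixl1 and -0.67 for Evx1. It was -1.16 on the second Eomes probe set. Mesp1, Gsc and Lhx1 were at -0.15, -0.11 and -0.27, and Msgn1 was at 0.22. Tbx6 was at 0.35, or 0.044 once its values under the floor were raised to the floor. Of 8 genes above the floor 1 (Eomes) was at least 1 in size, against 1.58% of 10955 genes, and 3 were at least 1.5-fold lower in this measure, against 6.95%. A value as far from 0 as that of Eomes was found for 0.812% of genes, and as far as that of Mixl1 for 3.29%. No error for this value can be had from 4 arrays without replicates.

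The factors with a range of at least 1 over the 4 arrays were compared, by the root mean square difference of their centred log2 values over the 4 arrays, with the 10493 genes that had a proper symbol and were above the floor on at least 1 array. Nearest to Mixl1 were St6galnac3, Etv6 and Plcl2, at 0.024, 0.055 and 0.058. Nearest to Eomes were Ccdc93, Plcl2 and Kcnma1, at 0.069, 0.11 and 0.11, although Kcnma1 was above the floor in control Flk1+ cells alone (3.44, 2.31, 2.46 and 2.39). Nearest to Mesp1 were Ptprd, Capn2 and Gadd45g, at 0.028, 0.037 and 0.042. Among the streak factors, Evx1 was rank 9 from Mixl1 and rank 10 from Eomes, whereas Mesp1 was rank 27 and rank 338. Gsc was rank 9772 from Mixl1. With 4 arrays many genes share a pattern, and the ranks describe these arrays only.

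Genes of the signals that induce the streak, with their mediators and antagonists, differed in both directions. Of 17 such genes above the floor in Flk1+ cells, 3 were 2-fold or more higher in the knockout and 1 lower, with a median of -0.015, where 0.873% of all genes were higher and 0.976% lower. In Flk1- cells 1 was 2-fold or more higher and 1 lower, against 0.389% and 0.949%, with a median of -0.0086. The Nodal antagonist genes Cer1 and Lefty1 were 2.18 and 1.11 higher in knockout Flk1+ cells. Nodal itself was at 5.48 against 4.45 in the control on its brighter probe set, a difference of 1.03, while its other probe set gave 0.31. Bmp4, the signal of the posterior streak and extraembryonic tissue, was at 8.62, 7.96, 7.02 and 5.90. In knockout Flk1+ cells, in which Eomes and Mixl1 were lower, Nodal, Lefty1 and Cer1 were higher and Bmp4 was lower. The part of these signals in the differences of the streak factors was not tested.

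Genes of the anterior streak and definitive endoderm were set beside Gsc and Lhx1. In Flk1+ cells 5 of 7 such genes above the floor were higher in the knockout, where 42.5% of all genes were. Their median was 0.77, against -0.048 over all genes. Of the 7, 1 was 2-fold higher (Otx2, at 1.01, also among the epiblast markers above), against 0.873% of all genes. Sox17, Foxa2 and Hhex were 0.96, 0.84 and 0.77 higher. In Flk1- cells 5 of 8 were higher, near the 56.8% of all genes, with a median of 0.43, against 0.039 over all genes. Hhex was at 1.06 there and Gata6, an endoderm and heart factor, at -0.58. A separate list of 6 endoderm markers, which shares Sox17 and Foxa2, had a summed level of 226, 339, 209 and 274. Of those above the floor, 3 were higher and 2 lower in knockout Flk1+ cells, and 2 were higher and 2 lower in knockout Flk1- cells. Ttr, 1 of those lower, was at -2.10 and -2.68, and its other probe set at -0.60 and -1.97. Foxa2, a target of Eomes in endoderm, was at 3.87, 5.08, 4.71 and 5.54. Its lowest value was in control Flk1+ cells, the group with the highest Eomes value. In the control sort, 6 of 8 anterior streak and definitive endoderm genes had a negative difference and 2 a positive one, with Foxa2 at -1.21. The part of the sort in the low Foxa2 value, and any link between Foxa2 and Eomes, was not tested.

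Genes that follow Mesp1 in cardiac and lateral mesoderm were, by their median, further below the control in the knockout than Mesp1 itself. Of 12 above the floor in Flk1+ cells 4 were 2-fold or more lower, against 0.976% of all genes, and 0 were 2-fold higher. At any size 3 were higher and 9 lower, with a median of -0.67, against -0.048. In Flk1- cells 7 of 13 were 2-fold or more lower, against 0.949% of all genes, and 0 higher, with a median of -1.02, against 0.039. Hand1, a transcription factor gene of heart and lateral mesoderm, was at 9.25, 8.21, 6.76 and 5.00. Foxf1 was lower by -2.58 and -2.28 and Tnnt2, a sarcomere gene, by -2.76 and -4.01, where Mesp1 was lower by -0.46 and -0.31.

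Presomitic and paraxial mesoderm genes, the setting of Tbx6, Msgn1 and Mesp2, were compared in the same way. In Flk1+ cells 0 of 14 above the floor were 2-fold apart by genotype, against 1.85% of all genes, so nothing can be read from so short a list. The median was 0.041, against -0.048. Furthest apart were Wnt5a at -0.91, Rspo3 at -0.86, Foxc1 at 0.77 and Pax3 at 0.60. Another probe set gave -0.071 for Rspo3 and 0.13 for Pax3. In Flk1- cells 1 of 15 was 2-fold or more lower (Wnt5a, at -1.16), against 0.949% of all genes, with a median of 0.11, against 0.039. Cyp26a1 was at 0.75, Foxc1 at -0.53 and Pcdh8 at 0.77, or 0.29 with its lower value set to the floor. By sort in knockout cells Foxc1 was at 2.03, and its other probe set at 0.98. Rspo3, a Wnt agonist, was at 5.51, 4.11, 4.65 and 3.95, highest in control Flk1+ cells as Mixl1 was. Its other probe set gave a control sort difference of 0.26, against 1.40.

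Of the other T-box genes only 5 of 13 named on the array were above the floor. Tbx3 was 1.60 lower in knockout Flk1+ cells (-1.60, with its 3 probe sets from -1.60 to -0.49), and Tbx20, a cardiac factor, differed by -0.85 in Flk1+ and -1.02 in Flk1- cells. The list for the change from epithelium to mesenchyme holds epithelial genes, such as Cdh1 and Epcam, and mesenchymal ones, so its counts mix opposite meanings. Of 11 above the floor in Flk1+ cells, 2 were 2-fold or more higher in the knockout, against 0.873% of all genes, and 0 were 2-fold lower. The 2 were Cdh1 at 1.79 and Epcam at 1.28. At any size 4 of the 11 were higher and 7 lower, with a median of -0.57, against -0.048 over all genes. In Flk1- cells the median was -0.50, against 0.039, and 3 of 11 were 2-fold or more lower, against 0.949% of all genes. These were Snai2 at -1.31, Vim at -1.18 and Zeb1 at -1.33, but the 3 probe sets of Zeb1 ranged from -1.33 to -0.13.

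**Figure D5:**
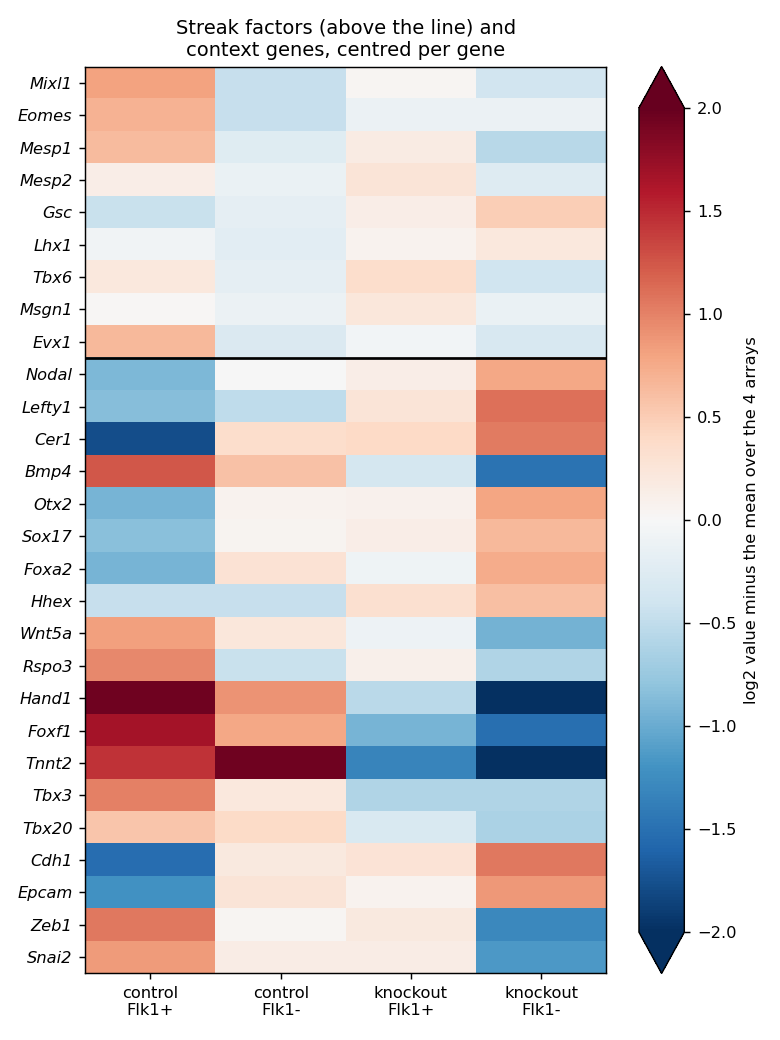
Log2 value of each gene minus its mean over the 4 arrays (colour, from -2 to 2), for the 9 streak factor genes above the black line and for context genes below it, with 1 column per array. Mixl1, Eomes, Mesp1 and Evx1 are highest in control Flk1+ cells, as are Hand1, Foxf1 and Rspo3, whereas Nodal, Cer1, Otx2, Foxa2 and Cdh1 are lowest there.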

How the data were processed

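The deposited table held log2 expression values for 45141 probe sets on 4 arrays, made by the authors with RMA and limma per the submitters' processing notes, which give no version or role. Per the labels, 50 ng of total RNA went into each cDNA amplification. The values were used as deposited. Left out were 104 control probe sets, 551 of several genes and 15588 paired with no gene. A gene was read from the probe set whose mean over the arrays was highest, and each probe set of the streak factors is also given. A gene entered a comparison when it was above the floor on either array and was counted from 2-fold. With 1 array per group no test was made. The counting was run on simulated data as a check of the code alone. The simulated noise was smaller than the SD between probe sets, so this run does not measure how sure the counts are. The genes and lists were chosen with earlier results of these data known. Besides the streak factors, genes were drawn from fixed lists by the size of their difference (4 per list in a genotype and 2 in a sort comparison). Vim was drawn by this rule, and not every gene so drawn is named. Genes of the 3 nearest patterns were drawn by distance, and markers are named from the marker lists. R 4.3.3, limma 3.58.1 and Python 3.11.15 were used, with cyclic loess at span 0.7 and 3 rounds. Alternatives were size rules of 1.5-fold and 3-fold, other floors, 3 further scalings and other choices of probe set.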

Additional observations from a re-analysis of the deposited data

Results flagged for a closer look

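For 3 genes above the floor on all arrays the knockout differed from the control in opposite directions in the Flk1 fractions, with 1 array in each group. Eomes was lower in knockout Flk1+ and higher in knockout Flk1- cells, with a difference of differences of -1.17 (from -1.17 to -1.03 over the 6 alternatives and the deposited values). Mixl1 had one of -0.84, with a Flk1- difference of only 0.079, and Msgn1 had one of 0.22, with a Flk1- difference of -0.019 that became 0.0071 after quantile normalization. None of these differences between fractions was tested.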

How the results depend on the processing

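Over 6 alternatives, 270 differences of the 9 genes were recomputed, of which 7 moved by more than the SD between probe sets and 8 changed sign. The changes of sign were in Eomes and Lhx1 for the sort in knockout cells, Gsc for the difference of differences and Msgn1 for genotype in Flk1- cells. None of these was 2-fold. At 1.5-fold, 3, 1, 4, 2 and 3 genes were counted for genotype in Flk1+ and Flk1- cells, the sort in control and knockout cells and the difference of differences, and at 3-fold 0 were counted in the control sort and in the difference of differences. The median in the control sort was 0.40 without a floor and with the mean of probe sets. The median for genotype in Flk1+ cells was 0.20 after centring, -0.46 with the floor at the median, and 0.13 without a floor and with the mean of probe sets. The genes above the floor change between these settings. For genotype in Flk1+ cells 93 genes were 2-fold higher and 104 lower, and 120 and 84 after centring. In the difference of differences these were 82 and 91, and 119 and 52 after centring. Eomes and Mixl1 were 2-fold apart in the control sort under every alternative but the 3-fold rule. Signal near the floor limits Tbx6, Mesp2, Gsc and Msgn1. No paired analysis was possible because each group has 1 array.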
